A study of Mus musculus with 6 samples.

Results

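The miR-23, miR-27 and miR-24 miRNAs of mouse are made from 2 gene clusters that each hold a miR-23, a miR-27 and a miR-24 hairpin. Here their levels in the RNA-induced silencing complex (RISC) of brain were described from 8 miRNA labels, namely mmu-miR-23a-3p, mmu-miR-23b-3p, mmu-miR-24-3p, mmu-miR-24-1-5p, mmu-miR-24-2-5p, mmu-miR-27a-3p, mmu-miR-27b-3p and mmu-miR-27b-5p (written without mmu from here on). The members were chosen by name, as every read sequence of the deposited table whose miRNA label was one of these 8. They were 8 of 1101 miRNA labels and 1964 of 143934 read sequences. The samples were frozen pieces of cortex with hippocampus from BL6 (C57BL/6J) male mice bought from a supplier, 3 of them young (2 months old, 2M) and 3 old (18 months old, 18M), with no transgene or treatment in either group. Small RNAs were measured by Ago-RP-Seq, in which a GW182 peptide pulls down Ago1-4 and the RNA bound to them is size-selected on a gel and sequenced. A level is therefore the share of a miRNA among RISC-bound short RNAs of a whole tissue piece, and fewer cells that make a miRNA cannot be told apart from less of it per cell.

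As background, a miRNA hairpin is cut by Drosha and Dicer into a 5p and a 3p arm, and one arm is usually kept by Argonaute while the other is lost. The seed near the 5′ end of the kept arm selects the mRNAs that are silenced. miR-23, miR-27 and miR-24 are made in many tissues and are known for roles in blood vessels, muscle, blood cells and lipid metabolism, and miR-24 also for roles in the cell cycle. Because the clusters are near copies, their miR-23 products share a seed, their miR-27 products share a seed, and their miR-24 hairpins give the same 3p sequence.

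On GRCm38 the first cluster covered 404 bases of the plus strand of chromosome 8, with Mir23a at chr8:84208518-84208592, Mir27a at chr8:84208672-84208758 and Mir24-2 at chr8:84208815-84208921. In the GENCODE M21 annotation Mir23a and Mir27a overlapped no other gene, and Mir24-2 overlapped an exon of the long non-coding RNA Gm26532. The second cluster covered 792 bases of the plus strand of chromosome 13, with Mir23b at chr13:63300484-63300557, Mir27b at chr13:63300712-63300784 and Mir24-1 at chr13:63301208-63301275. All these hairpins lay inside the protein-coding gene 2010111I01Rik, Mir23b in an intron and Mir27b and Mir24-1 within an exon of at least 1 annotated transcript, and in an intron of Fancc on the opposite strand. The chromosome 8 copies are called the a copies below, and the chromosome 13 copies the b copies.

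The mature sequences below show which members share a seed and where the copies part. They are RefSeq entries (GRCm38.p6) written 5′ to 3′, with the seed, bases 2 to 8, in capitals. For miR-23b-3p the most abundant read of the deposited table is shown, in DNA letters.
miR-23a-3p: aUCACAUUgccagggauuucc
miR-23b-3p, main read: aTCACATTgccagggattacc
miR-27a-3p: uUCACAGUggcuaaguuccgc
miR-27b-3p: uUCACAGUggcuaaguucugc
miR-24-3p (both hairpins): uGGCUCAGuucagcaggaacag
miR-24-1-5p: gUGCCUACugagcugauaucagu
miR-24-2-5p: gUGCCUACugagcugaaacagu
miR-27b-5p: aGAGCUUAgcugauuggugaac

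For each of the 7 members with a RefSeq mature entry, the most abundant read was identical to that entry. Counted from 1 at the 5′ end of the mature miRNA, the first change from the a to the b copy was T19A in miR-23 (the a copy has T, the b copy A), C19T in miR-27 and A17T in the 5p arm of miR-24. The copies thus differ only near the 3′ end, outside the seed. No read whose bases showed the other copy carried the wrong label. Of the miR-23a-3p reads, 1.34% ended before base 19 and could have come from either copy, and of the miR-27b-3p reads 0.255%. Reads of either label that end in T at base 19 are not settled either. The other copy, cut just before that base and with an added U, would read the same. A 19 nt read with this end was 5.43% of miR-27b-3p reads. Likewise, a miR-23b-3p read that ends in A at base 19 could be the miR-23a copy with an added A. Reads of 19 nt were 1.33% of miR-23b-3p. miR-24-3p reads cannot be divided between the clusters at all.

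Whole reads were recovered from the RPM values (reads scaled to a fixed library total). Libraries held 19272046 to 25080484 reads, and 3 reads were worth 0.120 to 0.156 RPM. All 5 miRNAs listed as neuron markers were present, and their summed level was 159273 to 201612 RPM per library, so the label of the tissue as brain was met by the data. Replicates are separate libraries of one age, and p-values measure the spread between these 3 libraries per age.

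To ask how much of the RISC these miRNAs occupy, the levels of the 8 members were added up per library. Together they made up 2.75% to 3.20% of all reads. The sum was 31192 ± 735 RPM (SD, n = 3) at 2M and 29726 ± 2101 RPM (SD, n = 3) at 18M, and the ranges of the ages overlapped. Most of it was 3p arms, with 26919 to 31343 RPM per library in the 5 3p members.

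miR-24-3p was the highest member and ranked 25 among all 1101 labels by mean RPM. Its level was 9716, 9817 and 10730 RPM in 2M replicates 1, 2 and 3 and 9737, 8314 and 11186 RPM in 18M replicates 1, 2 and 3. The lowest and the highest value were both from old mice, so the ages overlapped. miR-23b-3p ranked 33, with 8351, 7663 and 7268 RPM at 2M and 6787, 7929 and 7469 RPM at 18M. The library ranges of miR-24-3p and miR-23b-3p overlapped, but within each library miR-24-3p was the higher, by 1.05 to 1.50-fold.

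miR-27b-3p ranked 48, with 5526, 5079 and 4407 RPM at 2M and 5662, 4162 and 4938 RPM at 18M. miR-23a-3p ranked 52, with 4157, 4509 and 3861 RPM at 2M and 3465, 4088 and 3634 RPM at 18M. miR-27a-3p ranked 56, with 3594, 3030 and 3521 RPM at 2M and 3729, 2427 and 3529 RPM at 18M. The library ranges of neighbours in this group overlapped. Within each library miR-27b-3p was above miR-23a-3p, narrowly so in 18M replicate 2, whereas miR-23a-3p was above miR-27a-3p in 5 of 6 libraries and below it in 18M replicate 1. All 3 lay below the lowest library of miR-23b-3p. A read is counted once whatever its length, so these levels need no scaling by length.

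The 5p arms were far lower. miR-24-2-5p, rank 161, was at 390, 511 and 508 RPM at 2M and 434, 310 and 504 RPM at 18M. miR-24-1-5p, rank 203, was at 263, 329 and 293 RPM at 2M and 301, 205 and 317 RPM at 18M. Their ranges overlapped, while within each library miR-24-2-5p was 1.44 to 1.73-fold the higher. miR-27b-5p, rank 430, was at 19.8, 17.3 and 17.2 RPM at 2M and 16.2, 18.6 and 17.9 RPM at 18M, with at least 313 reads in a library. The ages overlapped for each of the 3 arms.

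The other labelled products of the same loci were at a few RPM or less, above the 3-read floor in every library. miR-23b-5p was at 3.38 to 5.10 RPM, miR-23a-5p at 1.09 to 2.10 RPM and miR-27a-5p at 0.767 to 2.19 RPM over the 6 libraries. From the strand opposite the miR-24 hairpins, miR-3074-5p was at 0.778 to 2.29 RPM and miR-3074-1-3p at 0.572 to 1.56 RPM, and no read carried the label miR-3074-2-3p. All 5 detected products together were at 8.35 to 11.0 RPM per library.

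**Figure D1:**
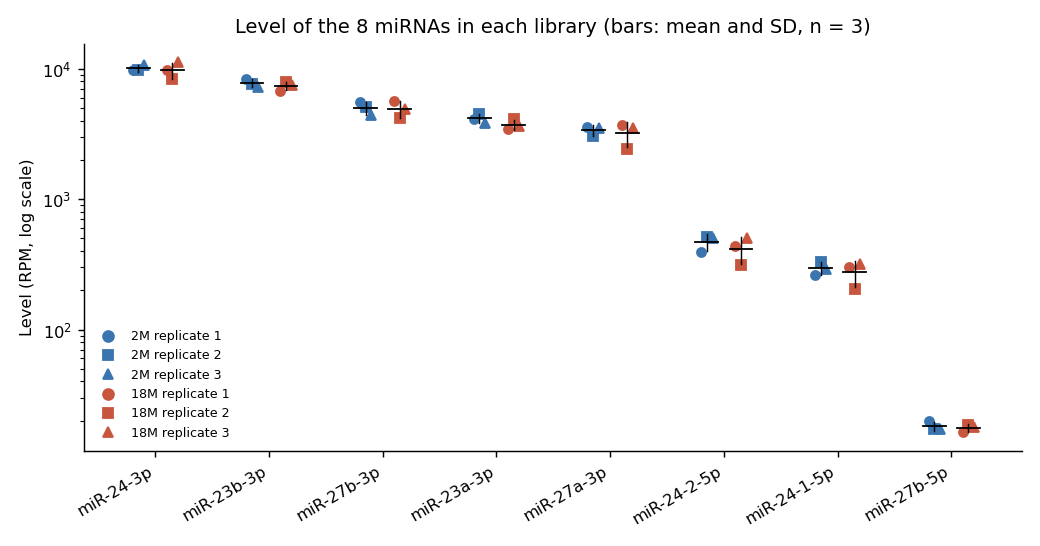
Level of each of the 8 miRNAs in RPM (log axis) in each library, blue for 2M and red for 18M, with the mean and SD (n = 3) as black lines. The 5 3p members lie between 2427 and 11186 RPM, the miR-24 5p arms between 205 and 511 RPM and miR-27b-5p between 16.2 and 19.8 RPM, and the ages overlap in each miRNA.

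Whether age changed the level of a member was tested with limma on log2(RPM + 1) over the 474 labels with a mean of at least 10 RPM. None of the 8 members passed an adjusted p of 0.05 (limma, Benjamini-Hochberg over all labels), where 23 of all 474 labels did (4.85%). At an unadjusted p under 0.05 the counts were 0 of 8 members and 17.9% of all labels. The 2M and 18M libraries overlapped for all 8 members, whereas they did not overlap for 24.9% of all labels. edgeR and DESeq2 on the recovered reads called 0 of the 8 members as well, beside 2.95% and 9.70% of all labels, and none of the 8 had an unadjusted p under 0.05 in either tool.

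The change with age of the most abundant member, miR-24-3p, was -0.059 ± 0.14 on the log2 scale (18M minus 2M, SE, 95% interval -0.39 to 0.27, adjusted p = 0.848, limma). That interval spans 0.763 to 1.21-fold. For miR-23b-3p the change was -0.070 ± 0.12 (95% interval 0.783 to 1.16-fold, adjusted p = 0.789). miR-23a-3p had -0.16 ± 0.13, with an interval of 0.725 to 1.10-fold and an adjusted p of 0.515, the lowest among the 8.

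miR-27b-3p (log2 change -0.029 ± 0.16) and miR-27a-3p (-0.088 ± 0.19) had adjusted p-values of 0.929 and 0.836. The arms miR-24-2-5p (-0.19 ± 0.21), miR-24-1-5p (-0.13 ± 0.20) and miR-27b-5p (-0.037 ± 0.13) had adjusted p-values of 0.679, 0.780 and 0.902. The widest interval was that of miR-24-2-5p, at 0.613 to 1.25-fold. All 8 estimates were below 0, where 62.0% of all labels were, but with median-of-ratios scaling those of miR-23b-3p, miR-24-3p, miR-27a-3p, miR-27b-3p and miR-27b-5p were above 0. The median change of the members was -0.079 and that of all 474 labels -0.074, and with median-of-ratios scaling the medians were 0.020 and 0.023.

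**Figure D2:**
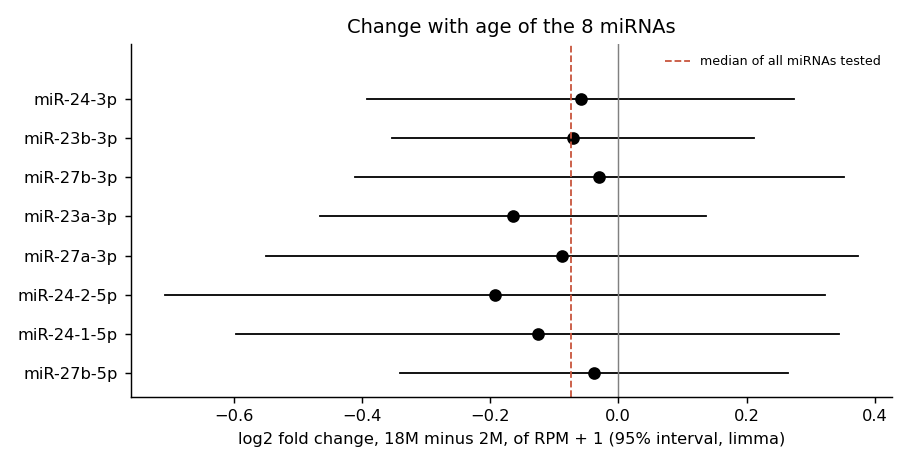
Log2 fold change from 2M to 18M of each miRNA (points) with the 95% interval from limma (lines), on the log2(RPM + 1) scale, 3 libraries per age. All 8 intervals cross 0 (grey line) and hold the median of all labels tested, -0.074 (dashed line).

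The spread between mice of the same age differed among the members. On the log2 scale the SD within ages was 0.11 for miR-23b-3p and 0.12 for miR-23a-3p, against 0.20 for miR-27b-3p, 0.26 for miR-27a-3p, 0.16 for miR-24-3p, 0.27 for miR-24-1-5p, 0.30 for miR-24-2-5p and 0.10 for miR-27b-5p. The median over all labels tested was 0.20. In 18M replicate 2 the levels of miR-24-3p, both miR-24 5p arms, miR-27a-3p and miR-27b-3p were each the lowest of all 6 libraries, while miR-23a-3p and miR-23b-3p there were the highest of the old mice. Without that library, the estimates of these 5 miRNAs lay between 0.0046 and 0.11 on the log2 scale, above 0, and none passed the test.

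In the same library the summed level of the erythrocyte markers was 1487 RPM, against 2608 to 3857 RPM in the others. The vessel markers were at 10104 RPM against 11390 to 17001 RPM, and the microglia and immune markers at 2834 RPM against 3285 to 4111 RPM. All 4 erythrocyte, all 4 vessel and all 6 microglia and immune markers were present, and each of these sums was the lowest of the 6 libraries there. The choroid plexus sum was also lowest there, at 2913 RPM against 2994 to 3453 RPM. The neuron sum was the highest there, at 201612 RPM, beside 201581 RPM in 2M replicate 3. The oligodendrocyte sum, at 7556 RPM, was above the 6659 RPM of 2M replicate 3. Summed over the list, the microglia and immune markers were at 3776 to 4111 RPM at 2M and 2834 to 3402 RPM at 18M, without overlap. Among single labels 24.9% did not overlap. Changes with age were below 0 for 3 of 5 tested microglia and immune, 4 of 4 vessel and 4 of 4 erythrocyte markers. They were below 0 for 2 of 5 neuron, 2 of 3 oligodendrocyte and 2 of 4 choroid plexus markers, and for 62.0% of all labels. No tested marker of any list passed the adjusted threshold (limma). The part of these cell types in the members' levels was not tested.

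A question that the paired clusters allow is which copy supplies more of the RISC-bound reads. The yield of adapter ligation and PCR for each sequence was not tested. Among miR-23 reads the share of miR-23b-3p was 66.8%, 63.0% and 65.3% at 2M and 66.2%, 66.0% and 67.3% at 18M. Among miR-27 reads the share of miR-27b-3p was 60.6%, 62.6% and 55.6% at 2M and 60.3%, 63.2% and 58.3% at 18M. The b copy thus had more reads in all 6 libraries for both miRNAs, by 1.70 to 2.06-fold for miR-23 and 1.25 to 1.71-fold for miR-27.

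In the 5p arm of miR-24 the order of the clusters was the opposite. miR-24-1-5p, of the b cluster, made up 40.3%, 39.1% and 36.6% of the miR-24 5p reads at 2M and 41.0%, 39.7% and 38.6% at 18M, under the level of the a cluster's miR-24-2-5p in every library. How much of miR-24-3p each cluster made is not seen, since its sequence is the same from both.

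With age, the mean share of the b copy differed by 1.47 percentage points for miR-23 (exact permutation test, two-sided, p = 0.3), by 0.987 points for miR-27 (exact p = 0.7) and by 1.10 points for the miR-24 5p arm (exact p = 0.5). The smallest p this test can give for 3 against 3 is 0.1. Adjusted over the 16 shares compared, all 3 p-values were 0.96. Assigned by their own bases alone, unlabelled reads included, miR-23b-3p was 63.3% to 67.7% of the miR-23 reads and miR-27b-3p 55.6% to 63.2% of the miR-27 reads. With only reads that run at least 1 base past the first difference, these shares were 63.8% to 68.5% and 54.4% to 61.7%.

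**Figure D3:**
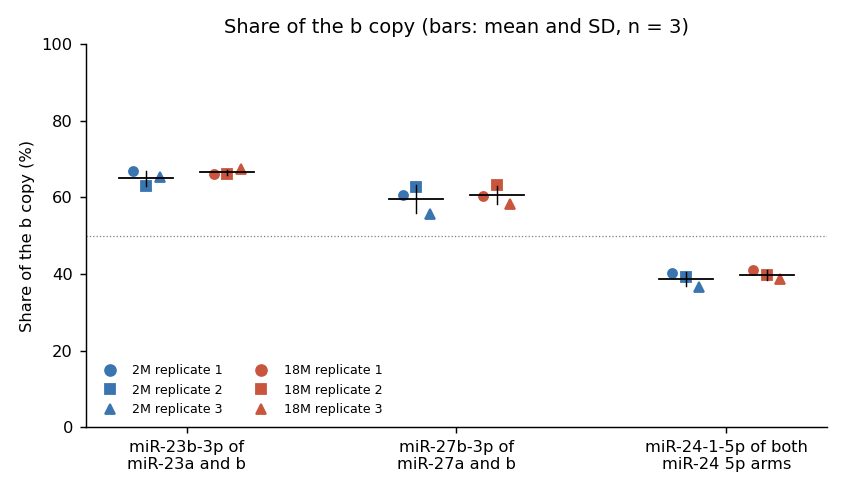
Share of the b copy (chromosome 13) in percent for miR-23, miR-27 and the miR-24 5p arm, in each library, with the mean and SD (n = 3) per age as black lines and 50% as a dotted line. The miR-23 shares lie at 63.0% to 67.3% and the miR-27 shares at 55.6% to 63.2%, above the line, and the miR-24-1-5p shares at 36.6% to 41.0%, below it.

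Members of 1 cluster come from neighbouring hairpins, and their levels were compared across libraries. The ratio of miR-23a-3p to miR-27a-3p was 0.929 to 1.68 and that of miR-23b-3p to miR-27b-3p 1.20 to 1.90, both highest in 18M replicate 2. Over the 6 libraries, the log2 levels of the copies varied together, with Pearson's r = 0.72 (Spearman's rho = 0.77) between miR-23a-3p and miR-23b-3p and r = 0.70 (rho = 0.83) between miR-27a-3p and miR-27b-3p. Among cluster mates r was of either sign. It was -0.52 (rho = -0.54) between miR-23a-3p and miR-27a-3p, -0.16 (rho = -0.20) between miR-23b-3p and miR-27b-3p, 0.62 (rho = -0.086) between miR-24-2-5p and miR-27a-3p, 0.53 (rho = 0.37) between miR-24-1-5p and miR-27b-3p, and 0.95 (rho = 0.94) between miR-23b-3p and the low arm miR-27b-5p. Both miR-24 5p arms, of different clusters, had r = 0.95 (rho = 0.83). These values describe 6 points that share library and depth, and 18M replicate 2 is the lowest point of both miR-24 5p arms and of both miR-27 3p members in them.

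The miRNAs outside the clusters most alike in pattern were taken as the 5 of 269 labels of at least 100 RPM with the highest r to the mean log2 level of the 5 3p members over the 6 libraries. They were miR-330-5p (r = 0.93, rho = 0.60), miR-126a-5p (r = 0.91, rho = 0.89), miR-99a-5p (r = 0.91, rho = 0.43), miR-350-3p (r = 0.90, rho = 0.49) and miR-376b-5p (r = 0.88, rho = 0.66). In 4 of the 5, rho was below 0.70. The 5 3p members did not share 1 pattern. Between them r ran from -0.52 (miR-23a-3p with miR-27a-3p) to 0.77 (miR-24-3p with miR-27a-3p). The list thus describes likeness to their mean, and likeness to single members was not computed.

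The arms of a hairpin were compared next. Reads of both miR-24 5p arms were 6.30%, 7.88% and 6.95% of all miR-24 reads at 2M and 7.02%, 5.83% and 6.84% at 18M, a difference of -0.481 points (exact permutation test, p = 0.5, adjusted p = 0.96). The 5p share of miR-27b was lower, at 0.286% to 0.445% of the miR-27b reads per library, and it differed by 0.00271 points between ages (exact p = 0.9, adjusted p = 0.96).

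Within each label the reads differed in where they ended. The sequences below are the 3 most abundant reads of miR-24-3p and the most abundant read with an added U of the other 3p members, written in DNA letters as deposited, and capitals mark bases that the hairpin does not hold.
miR-24-3p, main read: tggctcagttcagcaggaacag
miR-24-3p, second read: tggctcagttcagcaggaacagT
miR-24-3p, short read: tggctcagttcagcaggaac
miR-23a-3p with added U: atcacattgccagggatttccaT
miR-23b-3p with added U: atcacattgccagggattaccacT
miR-27a-3p with added U: ttcacagtggctaagttccgcT
miR-27b-3p with added U: ttcacagtggctaagttctgT

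In miR-24-3p the main read was 26.5% of the label, the form with an added U 26.1% and the form 2 bases shorter 21.7%. The form with an added U, at 2700, 2703 and 2903 RPM at 2M and 2443, 1855 and 2950 RPM at 18M, was thus as abundant as the main read, at 2681, 2971 and 2675 RPM and 2550, 1909 and 2968 RPM. All reads of miR-24-3p that ended in 1 to 3 added U, whatever their templated end, made up 31.2% of the label, and reads ending in added A 6.01%.

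The other 3p members had fewer such reads. Added U was found in 20.4% of miR-27a-3p, 16.4% of miR-23b-3p, 10.6% of miR-27b-3p and 5.03% of miR-23a-3p reads. Longer reads that matched the hairpin to their end were common in miR-23a-3p (37.3%) and miR-23b-3p (35.7%). They were rare in miR-27b-3p (4.37%), miR-24-3p (0.243%) and miR-27a-3p (0.0806%). An added base equal to the next hairpin base reads the same, so these shares can hold added bases. The main read with 1 more A alone was 32.2% of miR-23a-3p and 24.1% of miR-23b-3p. In miR-23b-3p most of the added U was on a single read of 24 nt, shown above, which was 11.3% of the label. The copies of a miRNA thus ended differently, although they share all but a few bases. The shares did not overlap between copies in any library, with added U at 3.99% to 5.75% in miR-23a-3p against 14.2% to 18.3% in miR-23b-3p, and at 18.3% to 26.4% in miR-27a-3p against 9.20% to 12.1% in miR-27b-3p.

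In the 5p arms, added U that the hairpin does not hold was seen in 0.0441% of miR-24-1-5p, 0.0926% of miR-24-2-5p and 0.645% of miR-27b-5p reads. Both miR-24 5p main reads end in U, so a read cut 1 base shorter with an added U would equal the main read. Such reads are not counted here, so the low values of these 2 arms are partly set by their sequence. Shortened reads without added bases were 38.2% of miR-24-1-5p, 20.4% of miR-24-2-5p and 38.8% of miR-27b-5p. In the 3p members they were 31.7% of miR-24-3p, 18.8% of miR-27b-3p, 15.6% of miR-23a-3p, 13.1% of miR-27a-3p and 9.99% of miR-23b-3p, so the arms overlapped in this share. miR-27b-5p also had 18.0% of longer reads that matched the hairpin to their end, and 5.89% of reads with added A.

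**Figure D4:**
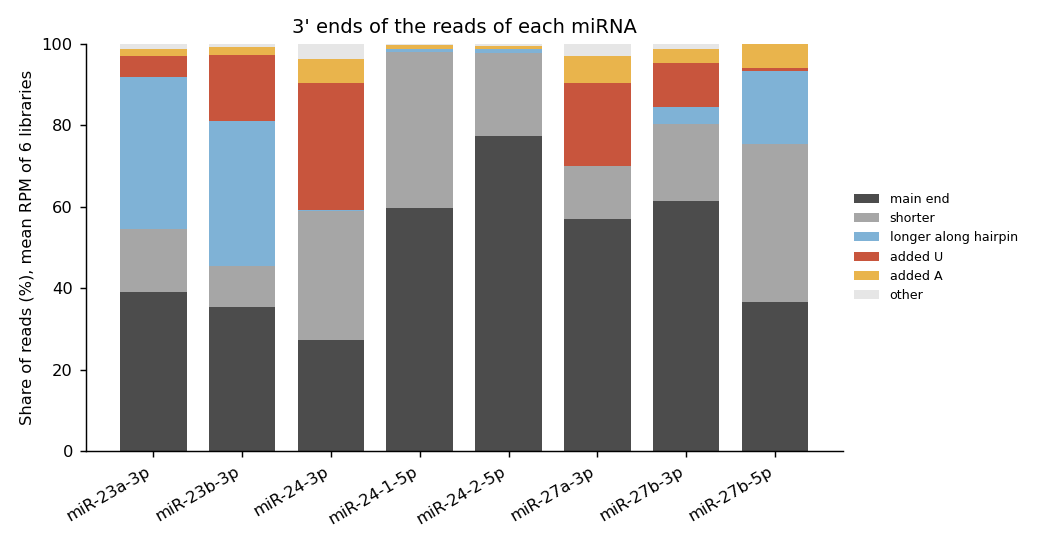
Stacked share of reads (percent, from the mean RPM of the 6 libraries) of each miRNA by 3′ end, namely at the end of the main read, shorter, longer along the hairpin, with added U, with added A, or other. Added U (red) is 31.2% of miR-24-3p and 20.4% of miR-27a-3p, and under 1% of each 5p arm. An added base that matches the hairpin is counted as hairpin.

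Per-library shares of the 3′ ends were compared between ages. The share at the end of the main read in miR-27b-3p was 64.8%, 61.5% and 61.3% at 2M and 60.6%, 60.1% and 60.2% at 18M. The ages did not overlap, at a difference of -2.26 points (exact permutation test, p = 0.1, adjusted p = 0.96). In the other 3p members the ages overlapped for this share, with exact p-values of 0.3 to 0.9.

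The share of reads with added U was compared after its level had been seen. In miR-24-3p it was 32.8%, 32.2% and 31.9% at 2M and 30.3%, 28.1% and 31.5% at 18M, a difference of -2.31 points. In miR-23b-3p it was 16.6%, 18.1% and 18.3% at 2M and 14.2%, 16.5% and 14.2% at 18M, a difference of -2.70 points. In miR-23a-3p it was 5.09%, 3.99% and 4.72% at 2M and 5.19%, 5.75% and 5.61% at 18M, a difference of 0.919 points, in the other direction. The ages did not overlap in these 3 members, each with p = 0.1 in the exact permutation test, the smallest it can give, and 0.167 adjusted over the 5 members compared. Added U was not computed for miRNAs outside the clusters, so no background can be set beside this count. In miR-27a-3p and miR-27b-3p the ages overlapped, with differences of -1.25 and -0.294 points (exact p = 0.8 each).

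Single read sequences were tested too, with limma over the 3281 sequences of at least 10 RPM. None of the 105 sequences of the members in that set passed an adjusted p of 0.05, where 0.366% of all sequences did, and the 17 sequences of miR-27b-5p were all below the minimum. Before adjustment, 4 of the 105 had a p under 0.05, against 13.0% of all sequences. Of the 105, 15 did not overlap between ages, where 21.0% of all sequences did not.

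Those 4 sequences, named here after their values were seen, all differed from the main read of their miRNA at the 3′ end. They are shown as deposited, in lower case.
miR-23a-3p, short with an added U: atcacattgccagggatttt
miR-27b-3p, with an added A: ttcacagtggctaagttctga
miR-23b-3p, with an added U: atcacattgccagggattaccact
miR-24-3p, shortened: tggctcagttcagcaggaa

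The miR-23a-3p sequence was at 26.7, 16.9 and 19.0 RPM at 2M and 31.4, 33.0 and 40.3 RPM at 18M (log2 change 0.73 ± 0.20, adjusted p = 0.226, limma). Its bases do not settle its copy, since miR-23b-3p cut before the first difference and with added U would read the same. The miR-27b-3p sequence was at 106, 84.0 and 81.2 RPM at 2M and 119.5, 121 and 133 RPM at 18M (0.47 ± 0.17, adjusted p = 0.306). The miR-23b-3p sequence was at 965, 999 and 938 RPM at 2M and 657, 877 and 682 RPM at 18M (-0.40 ± 0.16, adjusted p = 0.367). The miR-24-3p sequence was at 185, 117 and 269 RPM at 2M and 307, 300.5 and 274 RPM at 18M (0.70 ± 0.30, adjusted p = 0.378). In each of the 4 the ages did not overlap, and 3 of them were higher and 1 lower at 18M.

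The 5′ end sets the seed, and a shift by 1 base gives another 6mer seed. Each 6mer seed (bases 2 to 7) has a viability in the table, the percent of cells that survive an siRNA with that seed, as a mean over 3 murine cell lines. The viability deposited for the main seed was 65.5% for miR-23 (UCACAU), 59.0% for miR-27 (UCACAG), 31.8% for miR-24-3p (GGCUCA), 70.2% for the miR-24 5p arms (UGCCUA) and 20.1% for miR-27b-5p (GAGCUU). Seeds of low viability are called toxic. Of all reads with the seed GGCUCA, 97.4% were miR-24-3p. The miR-23 seed belonged to miR-23b-3p in 64.1% and to miR-23a-3p in 34.1% of its reads, and the miR-27 seed to miR-27b-3p in 57.1% and to miR-27a-3p in 38.6%.

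The 5′ ends were uniform except in miR-24-1-5p. Reads of the main start were 96.3% of miR-23a-3p, 94.3% of miR-23b-3p, 96.1% of miR-24-3p, 97.8% of miR-27a-3p, 96.2% of miR-27b-3p, 97.2% of miR-24-2-5p and 96.6% of miR-27b-5p. In miR-24-1-5p they were 71.7%. Its most abundant reads with each start are shown here, with no bases that the hairpin lacks.
miR-24-1-5p, main start: gtgcctactgagctgatatcagt
miR-24-1-5p, 1 base later: tgcctactgagctgatatcagt
miR-24-1-5p, 1 base earlier: ggtgcctactgagctgatatcagt

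Reads that started 1 base later, with the seed GCCUAC and a viability of 39.1%, were 15.4% of miR-24-1-5p and 2.07% of miR-24-2-5p. Reads that started 1 base earlier, with the seed GUGCCU and a viability of 53.0%, were 12.8% and 0.527%. Shifted starts in all were at 25.1% to 29.5% of miR-24-1-5p in the 6 libraries and at 1.95% to 3.30% of miR-24-2-5p, so both arms stood apart in every library although their first 16 bases are the same. At least 4796 reads per library lay behind the shares of miR-24-1-5p.

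The copies of miR-23 also differed in their shifted starts. Reads that started 1 base later, with the seed CACAUU and a viability of 75.6%, were 4.01% to 4.37% of miR-23b-3p and 0.826% to 0.940% of miR-23a-3p. Reads that started 1 base earlier, with the seed AUCACA and a viability of 82.0%, were 0.810% to 0.963% of miR-23b-3p and 2.13% to 2.31% of miR-23a-3p. In miR-24-3p, a start 1 base later gave the seed GCUCAG, with a viability of 77.3%, in 2.23% of the reads.

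**Figure D5:**
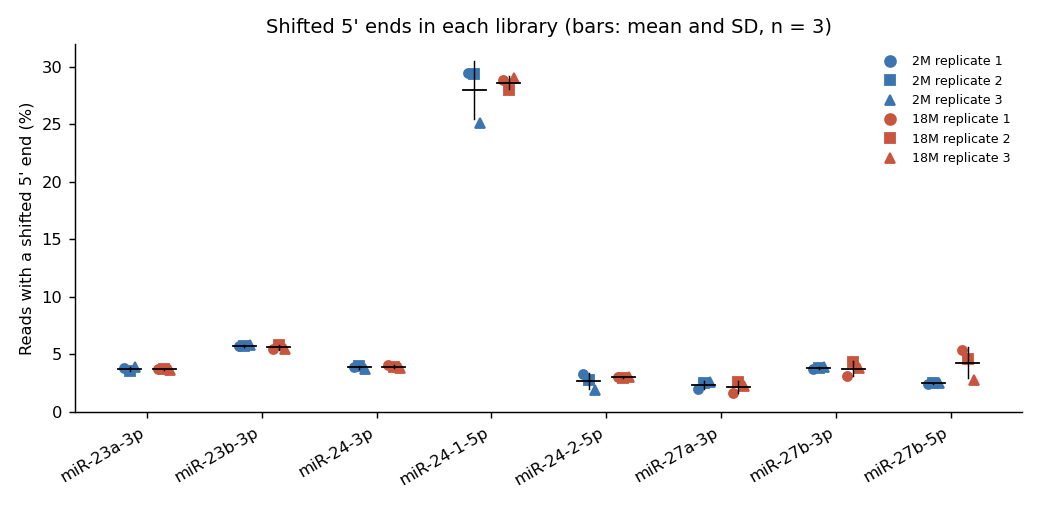
Share of reads (percent) whose 5′ end is not that of the main read, for each miRNA and library, with the mean and SD (n = 3) per age as black lines. miR-24-1-5p lies at 25.1% to 29.5%, and each other miRNA below 6%.

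Between ages, the shares of shifted starts of the 5 3p members differed by -0.181 to 0.0616 points, and the ages overlapped in each (exact permutation test, p = 0.3 to 0.8, adjusted p = 0.96).

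When miR-27 starts 1 base later, its 6mer seed becomes CACAGU, that of miR-128-3p, a neuronal miRNA of rank 2 here with a viability of 49.5% for this seed. The miR-128-3p sequence in RefSeq shows the shared bases, with its seed in capitals.
miR-128-3p: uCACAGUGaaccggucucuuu

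miR-27 reads with this seed were at 66.5 to 85.3 RPM, or 0.935%, 0.946% and 0.868% of the miR-27 reads at 2M and 0.709%, 1.01% and 0.991% at 18M (exact permutation test, p = 1.0). They made up 0.132% to 0.292% of all reads with the seed. miR-128-3p itself was at 29260 to 52555 RPM. In the other direction, miR-128-3p reads were 1.96% of all reads with the miR-27 seed UCACAG.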

How the data were processed

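The authors trimmed the reads (Trim Galore, per the labels), collapsed identical reads, removed rare ones, matched the rest to lists of mouse small RNAs (SPOROS) and deposited RPM values per read sequence, each library scaled to a fixed total. Versions and the genome build of these steps are not given in the sources used here. The deposited table also holds a total signal per sequence, which was not used, and the viability score of each 6mer seed. All RPM values lay within 0.05 of a read of a whole number of reads (100%), so whole reads were recovered. Counting error alone is small at these depths, and reads were counted without molecular identifiers.

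RPM was summed per miRNA label over its read sequences. Labels, or sequences, averaging 10 RPM or more were tested with limma 3.58.1 (lmFit, eBayes with trend, R 4.3.3) on log2(RPM + 1) calling adjusted p-values (Benjamini-Hochberg) under 0.05. Fold changes on this scale understate changes of low features. The pipeline was tested on simulated reads. Per-library shares were compared with exact two-sided permutation tests. Reads were aligned to their RefSeq hairpin from bases 5 to 14 of the main read, and up to 3 unmatched final bases counted as added. An added base that matches the hairpin was thus counted as hairpin. Named miRNAs were the 8 members, the other products of their loci, miR-128-3p and the 5 miRNAs most alike in pattern, and named reads the top read of each member and the top 3 of each 3p member, besides those said to be chosen otherwise and the top reads of each shifted start or added base, which were chosen after seeing the data. Members and lists were chosen with earlier results of these data known. Loci came from GENCODE M21.

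Alternatives were pseudocounts of 0.1 and 5, other minimum means, median-of-ratios scaling, limma without trend, the replicate number as a block, the count tools edgeR 4.0.16 and DESeq2 1.42.0 (fitted to the recovered whole reads), other read sets, assignment by own bases and leaving out each library. The added-U shares, a stricter assignment by own bases and the alternatives for single sequences were added after seeing the data. Python 3.11.15 with pandas 2.3.3 was used.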

Additional observations from a re-analysis of the deposited data

Results flagged for a closer look

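Some reads held the bases of these miRNAs but carried no miRNA label in the deposited table, and the comparisons above leave them out, except the shares of the copies assigned by their own bases. Reads with the 10 bases before the first difference between the copies were at 81.8 to 93.0 RPM per library for miR-23 and at 73.9 to 106 RPM for miR-27, above the 3-read floor in every library. For the 5p arm of miR-24 they were at 2.81 to 3.96 RPM. For miR-24-3p, unlabelled reads with 10 inner bases of the main read were at 54.25 to 77.9 RPM.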

How the results depend on the processing

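The number of members called by age was 0 under all alternatives run, and so was the number of their read sequences. Direction was less stable. The log2 changes turned positive with median-of-ratios scaling, edgeR and DESeq2 for miR-23b-3p (0.029, 0.019 and 0.031), miR-24-3p (0.040, 0.026 and 0.040), miR-27a-3p (0.011, 0.0073 and 0.021), miR-27b-3p (0.070, 0.056 and 0.068) and miR-27b-5p (0.056, 0.048 and 0.060), while 88 of 103 log2 changes and all 89 differences in share kept their direction over the alternatives that keep all libraries. These 3 alternatives rescale the libraries. Part of the tally could not turn. The other minimum means, the fit without trend, the block and the singly labelled reads returned the main log2 changes of the members. The block and the singly labelled reads also returned the main differences in share.

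Leaving out each library in turn gave log2 changes of -0.24 to 0.072 for miR-24-1-5p, -0.35 to 0.0046 for miR-24-2-5p, -0.16 to 0.050 for miR-24-3p, -0.20 to 0.11 for miR-27a-3p, -0.14 to 0.086 for miR-27b-3p and -0.077 to 0.026 for miR-27b-5p. For miR-23a-3p the range was -0.23 to -0.11 and for miR-23b-3p -0.12 to -0.0098. The difference in share ranged from 0.446 to 2.35 points for miR-23b, -1.02 to 2.50 for miR-27b, 0.0630 to 1.90 for miR-24-1 among the 5p arms, -0.852 to -0.0619 for the 5p share of miR-24 and -0.0378 to 0.0416 for that of miR-27b. The share at the main 3′ end ranged from -2.39 to 1.98 points for miR-23b-3p, and from -2.90 to -1.12 for miR-27b-3p. Shifted 5′ ends ranged from -0.171 to 0.00575 points for miR-23a-3p, -0.0170 to 0.124 for miR-24-3p, -0.407 to 0.0908 for miR-27a-3p and -0.356 to 0.265 for miR-27b-3p, the miR-128-3p seed in miR-27 from -0.0668 to 0.0837 and added U from -2.75 to 1.29 for miR-27a-3p and -0.830 to 0.386 for miR-27b-3p. For added U in miR-24-3p, miR-23b-3p and miR-23a-3p the ranges were -3.09 to -1.36, -3.47 to -2.31 and 0.613 to 1.16 points.

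Over all labels the number called, 23 of 474, was 2 for labels averaging 100 RPM or more, 3 without a filter, 14 with median-of-ratios scaling, 15 without trend, 14 with edgeR, 46 with DESeq2, 15 with singly labelled reads and 0 to 15 with a library left out, under the main count whichever library it was. The cause was not tested. With the replicate number as a block it was 1, and the block called none of the members. Each number occurs once in each age, so the block leaves every estimate as it was and could turn no direction. Same-numbered libraries did not deviate together (r = -0.17, -0.22 and -0.10), so the numbers were not taken as pairs. The precision of each log2 change is that of 3 libraries per age, as given by its interval.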
